A study of Zea mays with 448 samples.

Results

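The sites described here are 1424 transcribed positions at which the maize and the teosinte parent of nearly every F1 hybrid of the study carried different alleles. A position was kept when it was listed with the same maize allele and the same teosinte allele in 22 or more of 29 crosses. These sites are called widely segregating sites below. They make up 0.235% of the 605837 sites listed in any cross and lie in 987 of the 53793 gene models with a site. The rule used the listing of alleles, which came from genomic sequence. Read counts entered in the choice of the gene and transcript that represent a position, which kept 1424 of the 1429 positions that met the rule over all transcripts.

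In an F1 hybrid the maize and the teosinte copy of a gene sit in 1 nucleus and meet the same regulatory proteins. A lasting departure from a 1:1 ratio of their transcripts is therefore classed as a cis difference, one that lies on the same chromosome as the gene. A site at which only a few parents differ reports on those few haplotypes, whereas a site that segregates in nearly all crosses reads the maize and teosinte alleles of most of the sampled lines at the same base.

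The study crossed 6 maize inbreds (B73, CML103, Ki3, Mo17, Oh43 and W22) with 9 inbred lines of teosinte, the wild progenitor of maize (TIL01, TIL03, TIL05, TIL09, TIL10, TIL11, TIL14, TIL15 and TIL25), and sequenced polyA RNA of the F1s and of the parents. Immature ear, leaf and seedling stem with the shoot apical meristem were sampled, the last 2 at the same seedling stage. Single ears were taken from maize and F1 plants, and several small ears per plant were pooled for teosinte. No treatment was applied, and the F1s of an inbred share that parent, so that crosses are not fully independent. Ear was analysed for 28 of the 29 crosses and leaf and stem for all of them, in 172 F1 libraries (59 ear, 57 leaf and 56 stem) with 814830 to 3180394 allele-specific reads each. Of these, 16249 to 43857 reads per library fell on widely segregating sites. The photosynthesis genes pep1, me3 and pdk1 had their highest median level in leaf, the meristem gene kn1 in ear and then stem, and the floral gene zag1 in ear.

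One cross stood apart before any comparison was made. In B73xTIL01, maize reads at widely segregating sites were 65.9% (95% Wilson interval 65.3 to 66.5) in leaf replicate 1, 64.6% (64.1 to 65.2) in stem replicate 2 and 57.3% (56.7 to 57.8) in ear replicate 1. Its other libraries were at 50.4% (ear), 51.1% (leaf) and 50.6% (stem). Over all sites the same libraries held 80.7%, 80.1% and 56.9% maize reads. Replicates of this cross therefore differed by more than counting error, and the main comparisons of allele share are given with and without B73xTIL01. Values by kind of base and at the edge of the rule use all crosses. Gene calls, site calls and the ranges of named genes also keep B73xTIL01, except where its removal is stated. These intervals cover counting error only. Like the other Wilson intervals below, they take each count as a separate read, and are too narrow where a read covers several of the sites.

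Within the rule, 430 sites were listed in 22 crosses, 275 in 23, 284 in 24, 182 in 25, 75 in 26, 33 in 27, 61 in 28 and 84 in all 29. Just outside it, 496 sites were listed in 21 crosses and 741 in 20. The median site of the whole data set was listed in 3 crosses. Of the 987 genes, 717 held 1 widely segregating site, 176 held 2 and 94 held 3 or more, up to 10. Nearby sites of a gene can be read by the same sequencing reads and are not independent.

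Of the 41296 combinations of a widely segregating site and a cross, 82.7% were listed. Where a site was missing from a cross, at least 1 of the parents was not seen with its allele in any cross in 98.8% of 7160 combinations, and different alleles were listed in 81. The maize allele was seen in Oh43 at 97.5% of the sites, in B73 at 96.4%, in W22 at 96.1%, in Ki3 at 88.3%, in CML103 at 86.6% and in Mo17 at 85.3%. The teosinte allele was seen most often in TIL11 (93.0%) and least often in TIL05 (69.2%), TIL10 (70.1%) and TIL15 (77.5%), which each entered 1 cross. Under the rule, a site can lack its allele more easily in an inbred that enters few crosses than in one that enters many. The percents therefore do not rank the inbreds, of maize or of teosinte. The 84 sites of all crosses had the maize allele in every maize inbred and the teosinte allele in every teosinte inbred. At 59 sites an inbred was listed with the allele of the other group in some cross. A cross lists only positions at which its parents differ, so an inbred that shares the other group's allele can go unlisted. The count of 59 is therefore a lower bound.

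At the sequence level, 1366 of the sites (95.9%) were single-base substitutions and 58 were insertions or deletions, against 89.6% substitutions among the other sites. Transitions were 68.2% of the substitutions and 65.7% of those at other sites. The maize allele was the B73 reference allele at 96.4% of the widely segregating sites and at 69.5% of the others. B73 enters 7 crosses, so a site at which it lacks the maize allele can be listed in 22 crosses at most, and the rule favors sites at which B73 carries that allele. A substitution from A or T in maize to G or C in teosinte was found at 52.3% of the substituted sites, against 40.8% at other sites, and the opposite kind at 32.6% against 42.7%. The most frequent kinds were A in maize with G in teosinte (289 sites) and T in maize with C in teosinte (284 sites). Reads did not separate these kinds: sites with G or C in maize differed from sites with A or T in maize by -0.38 percentage points of maize reads (ear), -0.43 (leaf) and -0.05 (stem). None of these differences passed a two-sided permutation test over crosses (adjusted p = 0.186, 0.186 and 0.789).

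The sites were not spread over the genome as all sites were. Chromosome 5 held 252 of them (17.7%, with 11.5% of all sites), chromosome 4 held 236 (16.6% with 10.9%), and chromosome 9 held 46 (3.23% with 7.59%). Per 1000 sites this ranged from 3.62 on chromosome 5 to 1.00 on chromosome 9. In windows of 5 Mb of the B73 reference genome AGPv2, 318 of 418 windows held at least 1 widely segregating site, and the 10 windows with most of them held 15.2% of these sites and 2.91% of all sites. The fullest window, from 70000001 to 75000000 on chromosome 5, held 42 sites in 12 genes. It was followed by 40000001 to 45000000 on chromosome 6 with 27 sites in 14 genes and by 10000001 to 15000000 on chromosome 1 with 26 sites in 15 genes. Maize reads in the chromosome 5 window were 49.2% (ear), 50.7% (leaf) and 53.1% (stem). In the chromosome 1 window they were 45.97%, 48.5% and 46.6%. Positions in a window are linked and their counts are a description, with no test.

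**Figure D1:**
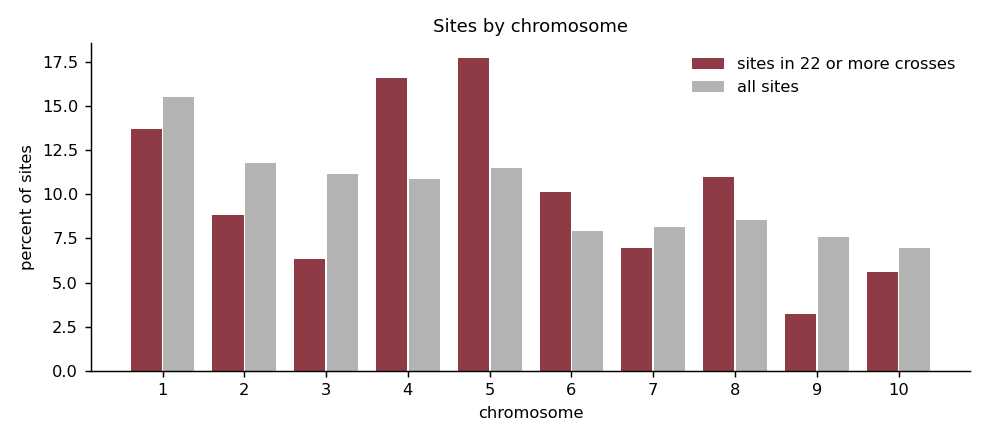
Percent of sites on each of the 10 chromosomes, for widely segregating sites (dark bars) and for all sites (grey bars). Chromosomes 4 and 5 held 16.6% and 17.7% of the widely segregating sites with 10.9% and 11.5% of all sites, and chromosome 9 held 3.23% with 7.59%.

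Genes with these sites were well covered. At least 100 reads fell on 1064 of the sites in ear (74.7%, with 28.02% of other sites), on 1019 in leaf and on 1037 in stem, and 109 sites had no read in any tissue. A site in more crosses is read in more libraries, but the median depth per cross that lists a site was also higher, at 23.9 (ear), 18.3 (leaf) and 22.2 (stem), against 7, 5.5 and 7 at other sites. The 10 deepest sites took 11.7% of the 5333558 reads.

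Allele ratios at these sites were close to 1:1. The maize share, averaged over crosses, was 50.1% ± 1.06 in ear (SD, n = 28 crosses), 50.5% ± 1.85 in leaf (n = 29) and 50.2% ± 1.53 in stem (n = 29). Per cross it ran from 48.8% through a median of 49.9% to 53.9% in ear, from 47.9% through 50.3% to 58.5% in leaf and from 48.3% through 50.0% to 56.9% in stem. B73xTIL01 was the highest cross in each tissue. B73xTIL05 was next, at 52.9%, 53.1% and 52.1%, and the lowest values were those of W22xTIL11 in ear and CML103xTIL11 in leaf and stem.

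Against all other sites of the same crosses, whose mean maize share was 50.5% (ear), 51.0% (leaf) and 50.9% (stem), the widely segregating sites favored maize slightly less. The mean difference was -0.38 percentage points ± 0.54 in ear (SD, n = 28, lower in 18 of 28 crosses), -0.52 ± 1.38 in leaf (n = 29, lower in 20 of 29) and -0.64 ± 1.31 in stem (n = 29, lower in 18 of 29). A two-sided permutation test with 100000 sign flips over crosses, adjusted by Benjamini-Hochberg over the 3 tissues, gave p = 0.00216, 0.0128 and 0.00216. Without B73xTIL01 the differences were -0.41, -0.29 and -0.43 (adjusted p = 0.00138, 0.0263 and 0.00522). The differences are smaller than the spread of the share between crosses. Crosses read largely the same widely segregating sites. The permutation tests of share given here therefore measure recurrence over crosses, and include no spread over sites or genes. Without replicate 1 the leaf difference was -0.24 and no longer passed the test, and without replicate 2 the stem difference was -0.27 and no longer passed. Averaged per maize inbred, which leaves 6 values and a smallest exact p of 0.03125, the differences of -0.42, -0.44 and -0.57 did not pass (exact test, adjusted p = 0.188, 0.0938 and 0.188).

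**Figure D2:**
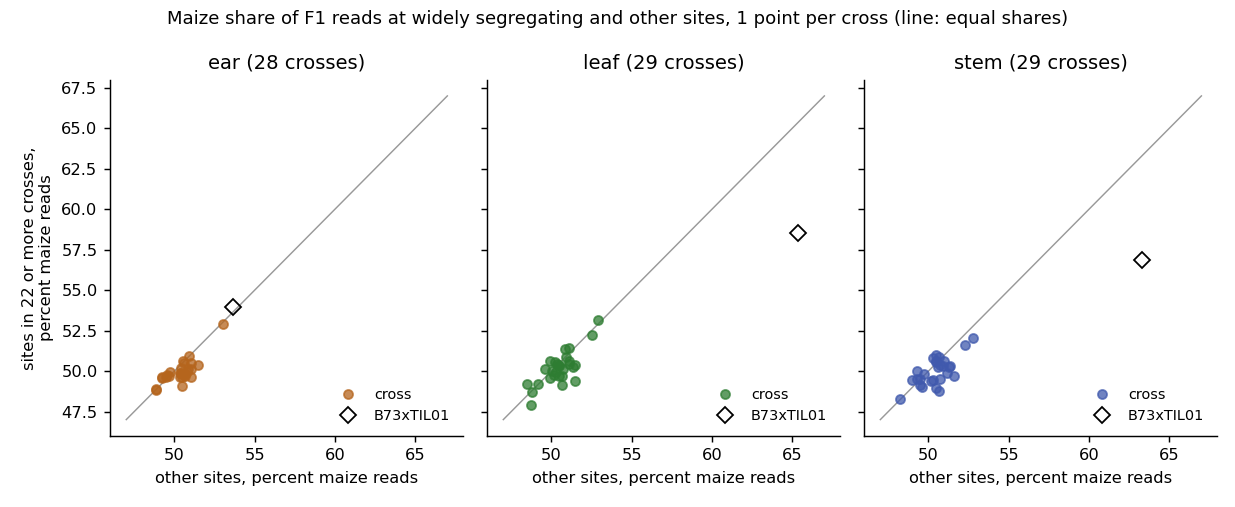
Percent maize reads at widely segregating sites (vertical axis) against that at all other sites (horizontal axis), 1 point per cross, for 28 crosses in ear and 29 in leaf and in stem. The line marks equal shares, and the open diamond is B73xTIL01, at 58.5% against 65.4% in leaf and 56.9% against 63.3% in stem.

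The same held within genes. At genes that hold both a widely segregating site and another site in a cross, the former minus the latter was -0.38 points in ear (lower in 20 of 28 crosses), -0.74 in leaf (22 of 29) and -0.59 in stem (23 of 29). The adjusted p of the permutation test was 0.0077, 0.00486 and 0.00486. Without B73xTIL01 the differences were -0.25, -0.43 and -0.34. The ear and stem differences were -0.23 without replicate 1 and -0.21 without replicate 2, and neither then passed the test.

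The maize share was higher at sites listed in fewer crosses. Ordered by the number of crosses that list a site, the mean maize share in ear fell from 51.3% for sites of 1 cross to 50.6% for 2 to 7, 50.3% for 8 to 14, 50.1% for 15 to 21 and 50.1% for 22 to 29. In leaf the values were 51.8%, 51.2%, 50.7%, 50.3% and 50.5%, and in stem 52.0%, 51.0%, 50.6%, 50.3% and 50.2%. Against sites of 15 to 21 crosses the widely segregating sites differed by 0.0049 points (ear), 0.22 (leaf) and -0.02 (stem), and none of these passed the test, with the sign turned in ear and leaf. Without B73xTIL01 these differences were -0.01, 0.26 and 0.0060, also not past it. At the edge of the rule, sites of exactly 21 crosses had mean shares of 49.6%, 49.6% and 49.2%, and sites of exactly 22 crosses 50.4%, 51.5% and 50.6%. The 253 sites of 26 or more crosses differed from other sites by -1.34 points in ear (lower in 26 of 28 crosses), -1.62 in leaf (27 of 29) and -1.96 in stem (27 of 29), with adjusted p = 3e-05, 4e-05 and 3e-05 by the same permutation test. Without B73xTIL01 they were -1.36, -1.33 and -1.68. These 253 sites are nearly the same in every cross, so the p-values measure recurrence over crosses and not a spread over sites.

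**Figure D3:**
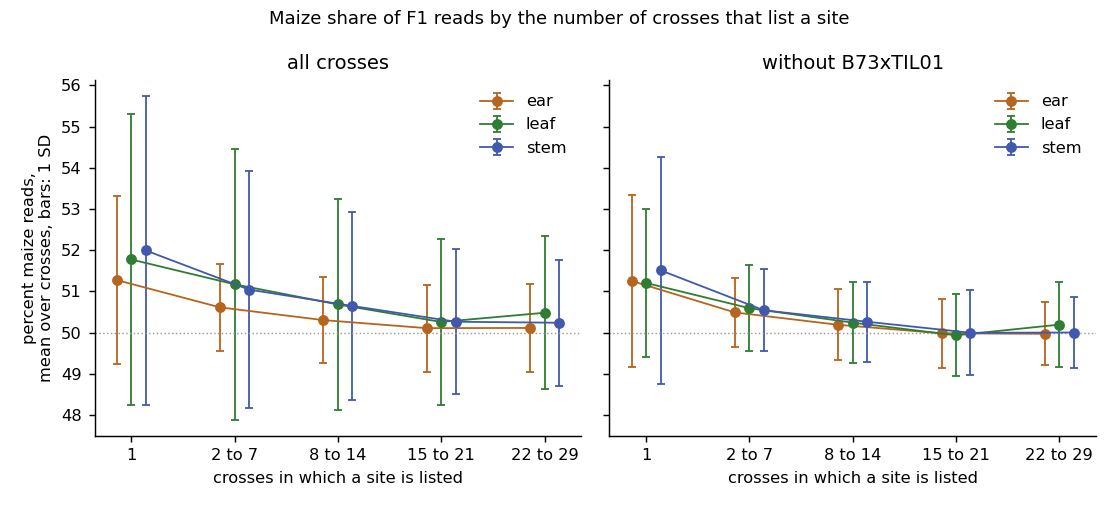
Mean percent maize reads over crosses (bars 1 SD) by the number of crosses that list a site, for ear, leaf and stem, with all crosses on the left and without B73xTIL01 on the right. Means lie above 51% for sites of 1 cross and between 49.9% and 50.5% for sites of 15 or more crosses in both panels.

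Tissues did not differ in the maize share of these sites by a margin that passed the test. Ear minus leaf was -0.35 points, ear minus stem -0.11 and leaf minus stem 0.24 (two-sided permutation test over crosses, adjusted p = 0.114, 0.498 and 0.113). Without B73xTIL01 the differences were -0.20, -0.0065 and 0.19, none past it.

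Genes that hold a widely segregating site were then compared with all genes tested. Reads of all sites of a gene were summed per cross and allele, and the alleles were compared by edgeR's quasi-likelihood test with the cross as a block and Benjamini-Hochberg adjustment over all genes with at least 100 reads. At an adjusted p below 0.005, 101 of 830 member genes were called in ear (12.2%), where 3.64% of all 17679 genes tested were called. In leaf 80 of 832 were called (9.62%), with 2.92% of all 18194 genes, and in stem 90 of 833 (10.8%), with 3.05% of all 18452. Of the calls, 60 favored the maize allele in ear and 41 the teosinte allele, where 2.32% and 1.32% of all genes did. In leaf the counts were 53 and 27 (2.05% and 0.868% of all genes) and in stem 57 and 33 (2.03% and 1.02%). At an adjusted p below 0.05 the test called 219, 167 and 180 member genes in these tissues, with 11.3%, 9.62% and 9.68% of all genes, and a binomial test on summed reads, which leaves out the spread between crosses, 480, 491 and 515, with 50.3%, 53.0% and 53.3%. With trimmed-mean (TMM) scaling between the allele columns, in place of 1 library size for both, the splits were 51 to 50 in ear, 43 to 35 in leaf and 47 to 43 in stem. The corresponding splits over all genes were 411 to 233, 373 to 158 and 375 to 188, and with TMM scaling 354 to 274, 310 to 240 and 312 to 248. Without replicate 1 the counts of member genes called were 60 (ear), 43 (leaf) and 30 (stem), and without replicate 2 they were 74, 36 and 62.

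The higher share of calls did not come with larger allele differences. The median absolute log2 ratio was 0.17 (ear), 0.19 (leaf) and 0.18 (stem) for genes with these sites, and 0.21, 0.23 and 0.22 over all genes tested. Their median depth was 5064 reads (ear), 4320 (leaf) and 5237 (stem), against 2222, 1979 and 2243. Among genes with 10 reads in at least 25 crosses, the share called rose with the number of crosses of a gene's most listed site from 2.74% (8 to 14 crosses) to 6.23% (15 to 21) and 12.7% (22 or more) in ear. It went from 2.44% to 5.22% and 10.3% in leaf and from 2.46% to 4.80% and 10.9% in stem. Over these 3 classes median depth in ear was 5806, 6902 and 6984 reads, the median absolute log2 ratio 0.15 in each, and the median standard error of the log2 ratio fell from 0.12 to 0.10 and 0.09. The part of precision in these shares was not tested.

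**Figure D4:**
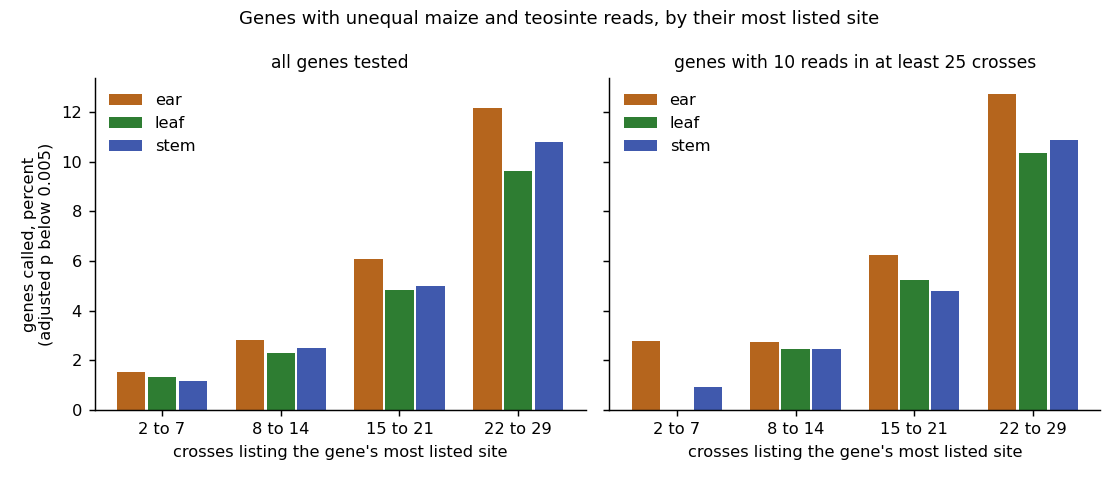
Percent of genes called by edgeR's quasi-likelihood test (adjusted p below 0.005) by the number of crosses that list the gene's most listed site, for ear, leaf and stem. Bars on the left cover all genes tested, rising in ear from 1.51% to 12.2%, and bars on the right genes with 10 reads in at least 25 crosses, from 2.78% to 12.7%.

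Calls were compared between tissues. Of 810 member genes tested in all 3 tissues, 153 were called in 1 or more, where 6.35% of all genes were, and 33 in all 3, where 1.03% of all genes were. All 33 kept 1 direction, 21 of them toward maize, as did all 168 such genes of the whole set, 104 of them toward maize. A further 31 were called in ear only, 30 in leaf only and 19 in stem only, and the counts over all 16334 genes were 265, 221 and 169. The fitted ratio had 1 sign in all tissues in 138 of the 153 member genes called and in 951 of the 1038 called over all genes. A call in 1 tissue and not in another is no test of a difference between them.

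Single sites were tested in the same way. Of 1064 widely segregating sites tested in ear, 201 were called (18.9%), with 113 toward maize and 88 toward teosinte, where 13.2% of the 7896 sites tested were called (7.09% and 6.16% by direction). In leaf 155 of 1019 were called (15.2%, 95 and 60), with 9.96% of all sites tested (6.02% and 3.94%), and in stem 201 of 1037 (19.4%, 117 and 84), with 12.6% (7.22% and 5.39%). At an adjusted p below 0.05 the member counts were 357, 313 and 348, with 26.9%, 23.9% and 27.2% of all sites tested, and by the binomial test 432, 414 and 430, with 36.4%, 37.1% and 38.2%. Sites of 15 to 21 crosses were called at 12.4%, 9.12% and 11.6%. With TMM scaling the member sites split 104 to 100, 82 to 65 and 99 to 99, and all sites tested moved from 560 to 486, 447 to 293 and 556 to 415 toward maize and teosinte to splits of 515 to 538, 400 to 330 and 493 to 524. Without replicate 1 the member counts were 100, 69 and 85 (461, 327 and 367 of all sites), and without replicate 2 they were 112, 64 and 120 (594, 313 and 523).

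Few genes favored 1 allele without exception. Among genes with at least 10 reads in 15 or more crosses, 9 of 783 member genes had more reads of the same allele in every such cross in ear, with 0.482% of all genes. The count was 9 of 772 in leaf (0.348% of all genes) and 9 of 786 in stem (0.302%), with 7 toward maize and 2 toward teosinte in each tissue. For single sites it was 25 of 896 (ear), 18 of 799 (leaf) and 19 of 879 (stem), with 3.57%, 3.03% and 3.55% of all sites. The SD of the maize share over crosses had a median of 8.14 points among member genes in ear and 10.8 among all genes, and the medians were 9.78 and 12.0 (leaf) and 8.73 and 11.3 (stem). The SD that counting alone would give was also lower in member genes, with medians of 4.40 and 5.40 (ear), 5.01 and 5.76 (leaf) and 4.47 and 5.31 (stem). It takes each count as a separate read, and is too low where a read covers several sites of a gene. For single sites the SD over crosses was 9.66 at widely segregating sites and 9.36 at all sites tested in ear, with 10.7 and 10.4 (leaf) and 9.81 and 9.60 (stem).

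The 84 sites of all 29 crosses lay in 66 genes. Of these, 11 of 58 tested were called in ear (7 toward maize), 9 of 58 in leaf (4 toward maize) and 11 of 57 in stem (6 toward maize), where 3.64%, 2.92% and 3.05% of all genes were called. Of these genes 7 had a RefSeq name. They were dcl1, which encodes a Dicer-like ribonuclease of small RNA biogenesis and held 2 such sites on chromosome 1, smt1, which encodes a sterol methyltransferase, dcl3a, another Dicer-like enzyme, sxd1, needed for tocopherol synthesis and named for its sucrose export defect, SnRK2.6, a kinase of abscisic acid signalling, xyl1 (GRMZM2G170839), with 0 reads at its site in every tissue, and pcl20249-1(711) (GRMZM2G140582), which was not called. For dcl1 (GRMZM2G040762) the maize share over crosses at all its sites ran from 44.9% through 54.4% to 59.3% in ear, with maize higher in 21 of 28 crosses, and its log2 ratio was 0.22 ± 0.05 (SE, edgeR adjusted p = 0.0028). It was 0.02 in leaf and 0.13 in stem, neither past the threshold. For sxd1 (GRMZM2G009785) the log2 ratio was 0.53 in ear and 0.50 in stem without passing the threshold (edgeR adjusted p = 0.0179 and 0.00924).

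Of the 62 tested member genes with a RefSeq name, 11 were called in at least 1 tissue, 9 (ear), 6 (leaf) and 6 (stem), where 18.9% of member genes and 6.35% of all genes tested in every tissue were called in at least 1. These genes were chosen here because they have a name and passed the test, after their values were seen. Toward maize, bas1 (GRMZM2G077673) had 2123 maize and 893 teosinte reads in ear, with 5079 and 3109 in leaf and 3952 and 1967 in stem. Its share in ear ran from 58.6% through 71.2% to 80.8% over 27 crosses and was above 50% in all of them, as it was in all 28 crosses in stem. The log2 ratio was 1.27 ± 0.09 (ear), 0.65 ± 0.09 (leaf) and 1.00 ± 0.06 (stem) (SE, edgeR adjusted p = 3.37e-11, 1.38e-05 and 1.18e-13). HP3 (GRMZM2G451604), a histidine phosphotransfer protein of the cytokinin relay, had a share of 52.3% to 81.8% in ear, with maize higher in 21 of 21 crosses and a log2 ratio of 1.00 ± 0.13 (SE, edgeR adjusted p = 8.16e-06). HSP90-2 (GRMZM2G012631), a chaperone, had a small difference that recurred over crosses, with maize higher in 23 of 24 crosses in ear and 24 of 25 in stem at log2 ratios of 0.29 and 0.30. Its leaf value of 0.31 did not pass the threshold.

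Toward teosinte, sbe1 (GRMZM2G088737), a starch branching enzyme, was called in all tissues. Its maize share ran from 32.3% through 40.8% to 52.6% in ear, and teosinte was higher in 23 of 25 crosses (ear), 24 of 26 (leaf) and 23 of 26 (stem). The log2 ratio was -0.46 ± 0.06, -0.53 ± 0.08 and -0.37 ± 0.07 (SE, edgeR adjusted p = 9.13e-06, 5e-05 and 0.000736). SnRK2.6 (GRMZM2G130018) was called in leaf only, with teosinte higher in 18 of 20 crosses. Its log2 ratio over all its sites was -0.86 ± 0.15 in leaf, beside -0.00 in ear and 0.08 in stem. At its site listed in all 29 crosses, teosinte reads were also more frequent in ear. That site had 136 maize and 189 teosinte reads in ear, with 53 and 148 in leaf and 85 and 80 in stem. The histone deacetylase gene hda106 (GRMZM2G057044) and the acetohydroxyacid synthase gene AHAS109 (GRMZM2G143357), of branched-chain amino acid synthesis, were called in ear at -0.80 and -0.36, and the cytochrome P450 gene CYP727A4 (GRMZM2G022947) in leaf at -0.51. A difference between tissues was not tested for these genes. A second gene model, GRMZM2G088753, carries the name sbe1 in the reference table as well, and its log2 ratios of 0.88 in ear and 0.72 in stem did not pass the threshold (edgeR adjusted p = 0.00582 and 0.00672).

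Genes named by the rule for the strongest allele differences were mostly without a described product in the sources used here. Sites are written as the maize base, the position in the reference transcript counted from 1 at its 5′ end, and the teosinte base. They lie in annotated transcripts, and whether in coding or untranslated sequence is not given in the sources used here. The named gene afd1 (GRMZM2G059037), which encodes the meiotic cohesin subunit REC8, held T1437G at position 166624088 of chromosome 6, listed in 26 crosses, and C1743T at 166624746. At these sites it had 266 maize and 75 teosinte reads in ear, with 297 and 62 in leaf and 142 and 53 in stem. Maize was higher in 15 of 16 crosses in ear and in 19 of 19 in leaf, and Oh43xTIL15 was the lowest cross in ear (38.1%) and stem (30.8%). Over all its sites the log2 ratio was 1.44 ± 0.25 (ear), 2.38 ± 0.27 (leaf) and 1.92 ± 0.34 (stem) (SE, edgeR adjusted p = 0.000215, 6.69e-07 and 0.00033).

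GRMZM2G122810, smt1, was among the 5 genes with most reads at widely segregating sites. Its sites were C626G at 18141724 of chromosome 7, in 25 crosses, and A587G at 18144252, in all 29. They had 15607 maize and 11038 teosinte reads in ear, with 14086 and 10700 in leaf and 23248 and 16693 in stem. The maize share ran from 44.0% through 59.0% to 75.4% in ear, from 48.5% through 56.4% to 69.5% in leaf and from 47.8% through 58.5% to 73.1% in stem, with maize higher in 26 of 28, 28 of 29 and 27 of 29 crosses. B73xTIL01 was the highest cross in ear and in stem. The log2 ratio over all sites was 0.48 ± 0.07, 0.36 ± 0.05 and 0.45 ± 0.06 (SE, edgeR adjusted p = 3.44e-05, 3.9e-05 and 1.52e-05). The leaf call was lost without replicate 1 (0.34) and without replicate 2 (0.45), and the stem call without replicate 1 (0.49).

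Others favored maize in every tissue. GRMZM2G131817, with C1512G, C1229T and C916G on chromosome 1, had a median maize share of 69.1% (ear), 71.7% (leaf) and 65.6% (stem), above 50% in 25 of 27 crosses in each tissue. Its log2 ratios over all sites were 1.16, 1.28 and 1.16. AC212859.3_FG007, with the neighbouring sites C4617T and A4618T on chromosome 2, had 606 maize and 160 teosinte reads in ear, above 50% in 21 of 21 crosses, and log2 ratios of 1.79 in ear and 2.00 in stem. The leaf value of 1.53 had an adjusted p of 0.00543 by edgeR and fell just short of the threshold. GRMZM2G039254, with 7 sites on chromosome 5, had a smaller excess of maize reads, above 50% in 24 of 28 crosses (ear), 27 of 29 (leaf) and 23 of 29 (stem), with log2 ratios of 0.30, 0.52 and 0.30. Its single sites ranged from 48.1% (C2117T) to 66.4% in ear, from 54.9% to 68.1% (T2168C) in leaf and from 50.8% to 65.8% in stem. With the deepest site of each gene alone, GRMZM2G039254 was not called in any tissue, at log2 ratios of 0.25, 0.36 and 0.10.

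Some genes were called toward maize in some tissues and not in others. GRMZM2G093359, with T948C at 120790750 of chromosome 5, listed in 24 crosses, had 1104 maize and 404 teosinte reads in ear, with 2092 and 1867 in leaf and 1055 and 347 in stem. Its maize share ran from 49.3% through 78.0% to 86.8% in ear and from 48.8% through 79.5% to 91.4% in stem, but from 38.2% through 53.6% to 82.9% in leaf. The log2 ratio was 1.71 ± 0.15 in ear and 2.04 ± 0.19 in stem (SE, edgeR adjusted p = 1.35e-08 and 6.3e-08) and 0.27 ± 0.12 in leaf, which did not pass. Within crosses ear exceeded leaf by 20.3 points (21 of 23 crosses) and leaf minus stem was -22.3 points (stem higher in 23 of 24), each with an adjusted p of 0.000367 over 55 tissue pairs by two-sided permutation tests, where 2e-05 is the smallest unadjusted p the draws can give. Genes named for a large ratio in a tissue were chosen with the values of that tissue, which favors a tissue difference, and the p-values of tissue pairs are adjusted over these 55 pairs alone.

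GRMZM2G126858, with A2648G, T818C and G627C on chromosome 10, differed between leaf and the other tissues. It had 807 maize and 216 teosinte reads in ear, 510 and 194 in stem, and 224 and 402 in leaf. Ear exceeded leaf by 34.9 points (12 of 15 crosses, adjusted p = 0.00227 by permutation test) and leaf minus stem was -33.7 points (stem higher in 13 of 15, adjusted p = 0.00231). At these sites the median share was 92.9% in ear, 83.3% in stem and 26.7% in leaf. The 5 crosses of TIL03 were below the median in ear, with 43.3% maize reads (95% Wilson interval 37.1 to 49.6), and in stem, with 38.9% (31.7 to 46.6). In leaf they held 28.1% (22.4 to 34.8), and the crosses of TIL01 and TIL25 held 21.6% and 19.6%. Over all sites of GRMZM2G126858, leaf had 1021 maize and 1403 teosinte reads and a median share of 42.5%, with maize higher in 11 of 25 crosses. The log2 ratio over all sites was 2.60 ± 0.51 in ear and 1.85 ± 0.35 in stem (SE, edgeR adjusted p = 0.00101 and 0.000877). In leaf it was 0.10 ± 0.35, which did not pass the threshold (edgeR adjusted p = 0.919). GRMZM2G472827, with C1862A on chromosome 1, had 123 maize and 25 teosinte reads in leaf and 294 and 292 in ear at this site. Over all its sites ear had 4351 and 6661 reads, with teosinte higher in 20 of 28 crosses and a log2 ratio of -0.62 that did not pass the threshold. Only 6 crosses had 10 reads in both tissues, and the difference, with leaf higher in 6 of 6, did not pass the exact test after adjustment (ear minus leaf -37.5 points, adjusted p = 0.0716). Stem had 66 and 17 reads at this site, and the log2 ratio over all sites, 0.83, did not pass the threshold there. The leaf call was lost without replicate 1 (1.12). GRMZM2G126920 was called toward maize in leaf, where its 1 site had 228 maize and 55 teosinte reads, with maize higher in 11 of 11 crosses. It had 17 maize and 10 teosinte reads in ear (62.96%) and 29 and 17 in stem (63.04%), with log2 ratios of 0.70 and 0.63 that did not pass the threshold, and a difference between tissues was not tested for it.

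**Figure D5:**
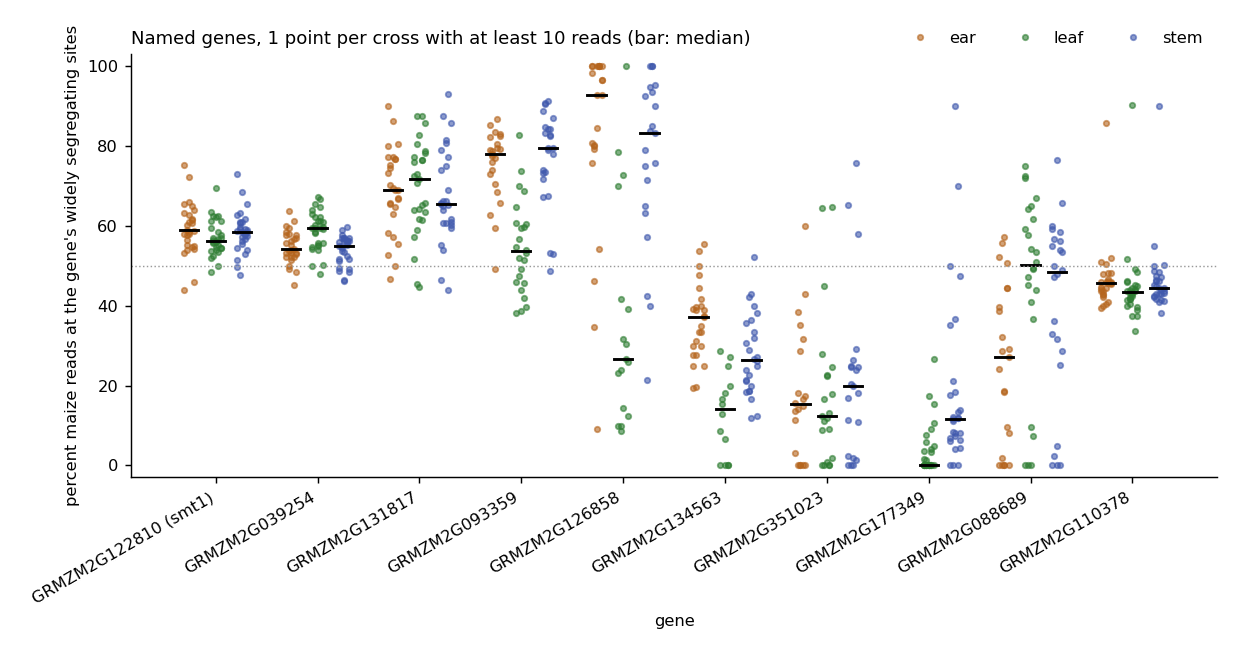
Percent maize reads at the widely segregating sites of 10 named genes, 1 point per cross with at least 10 reads, for ear, leaf and stem, with a bar at the median. GRMZM2G093359 and GRMZM2G126858 lie high in ear and stem (medians of 78.0% to 92.9%) and at 53.6% and 26.7% in leaf, and B73xTIL05 is the single high point of GRMZM2G110378 in each tissue.

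Toward teosinte the largest ratios were found in leaf. GRMZM2G177349, with A352G and A316G at 175370153 and 175370189 of chromosome 2, each listed in 28 crosses, had 33 maize and 1030 teosinte reads in leaf and 218 and 1436 in stem. Teosinte was higher in 27 of 27 crosses in leaf, where the highest maize share was 26.7%, and in 25 of 28 in stem, where B73xTIL05 reached 90.0% (95% Wilson interval 69.9 to 97.2). That interval is too narrow, since a read can cover both neighbouring sites. The log2 ratio was -4.79 ± 0.34 in leaf and -2.67 ± 0.33 in stem (SE, edgeR adjusted p = 3.31e-11 and 3.52e-06), and leaf minus stem was -12.25 points, with stem higher in 23 of 27 crosses (permutation test, adjusted p = 0.000943). Ear had 32 maize and 21 teosinte reads at these sites (60.4% maize) and 39 and 23 over all sites of the gene, and was not tested.

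GRMZM2G134563, with C520G at 116133273 of chromosome 4 in 26 crosses, also favored teosinte most in leaf. Its reads were 214 maize and 405 teosinte in ear, with 35 and 307 in leaf and 231 and 562 in stem. The log2 ratio over all sites was -0.73 ± 0.13, -3.03 ± 0.34 and -1.03 ± 0.13 (SE, edgeR adjusted p = 0.000389, 7.54e-07 and 6.5e-06). Ear minus leaf was 26.03 points, with ear higher in 13 of 13 crosses, and leaf minus stem was -18.65 points, with stem higher in 13 of 14, both with an adjusted p of 0.00134 by permutation test. The ear call was lost without replicate 1 (-0.81). GRMZM2G411457, with C295G on chromosome 5, had no maize read and 119 teosinte reads at this site in leaf. That allows a maize share at the site of up to 2.52% by a limit of 3 counts (95% Wilson upper limit 3.13%). Over all its sites leaf had 12 maize and 919 teosinte reads (1.29% maize). Only 3 crosses had 10 reads at its site, and with DESeq2 or with its widely segregating site alone the gene was not called.

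GRMZM2G351023, with G554T at 76573411 of chromosome 2 in 22 crosses, favored teosinte in all tissues. It had 154 maize and 888 teosinte reads in ear, with 300 and 1862 in leaf and 338 and 1444 in stem, with teosinte higher in 19 of 20, 19 of 21 and 18 of 21 crosses. The log2 ratio was -2.51 ± 0.41, -2.69 ± 0.44 and -2.29 ± 0.47 (SE, edgeR adjusted p = 0.000195, 0.000268 and 0.00246). The crosses of TIL11 were higher than most, with 40.8% maize reads in ear (95% Wilson interval 31.6 to 50.7), 51.0% in leaf (41.3 to 60.6) and 59.2% in stem (50.6 to 67.3). GRMZM2G122039, with T1211C and G768A on chromosome 4, was steadier at these sites. Its median maize share there was 35.7% (ear), 33.3% (leaf) and 33.8% (stem), and teosinte was higher in 23 of 23 crosses in stem. Over all its sites the share ran from 17.4% to 53.6% in ear, 14.3% to 80.0% in leaf and 12.9% to 75.9% in stem. Teosinte was then higher in 24 of 25 crosses in ear and 25 of 26 in leaf and in stem. GRMZM2G415529 was called toward teosinte in all tissues at log2 ratios of -1.75 (ear), -2.12 (leaf) and -1.47 (stem). GRMZM2G375975 was called toward teosinte in ear at -1.43, whereas leaf had 91 maize and 76 teosinte reads at its sites and a log2 ratio of 0.31 that did not pass, and stem was not tested, with 6 and 21 reads. The ear call of GRMZM2G375975 was lost without replicate 1 (-1.12) and without replicate 2 (-1.59), and the stem call of GRMZM2G351023 without replicate 1 (-1.98).

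The reads of GRMZM2G088689 are given by maize parent. GRMZM2G088689, with C1822T at 15550752 of chromosome 10 in 24 crosses, had 439 maize and 1511 teosinte reads in ear, with 735 and 897 in leaf and 1195 and 1913 in stem. In the crosses of W22 no maize read stood beside 119 teosinte reads in ear, which allows a share of up to 2.52% by the limit of 3 counts (Wilson upper limit 3.13%), and the share was 1.47% in leaf (95% Wilson interval 0.571 to 3.71) and 2.33% in stem (1.23 to 4.37). In the crosses of Oh43 it was 39.8%, 59.8% and 54.6%, in those of B73 34.3%, 53.5% and 52.0%, and in those of CML103 7.44%, 33.7% and 20.5%. In the crosses of Ki3 it was 20.9%, 54.8% and 43.03%, and in those of Mo17 7.85%, 49.25% and 29.96%. A difference between inbreds was not tested. Over crosses ear minus leaf was -19.3 points (leaf higher in 17 of 23) and ear minus stem -14.5 (stem higher in 19 of 23), with adjusted p = 0.00055 and 0.000367 by permutation test. Its log2 ratio was called in ear alone, at -1.65 ± 0.36 (SE, edgeR adjusted p = 0.00293), and the call was lost without replicate 2, at -1.54, and with its widely segregating site alone, at -1.77.

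GRMZM2G110378, with G1268C and T1224A on chromosome 6, each in 28 crosses, showed 1 cross against the rest. Its share ran from 39.5% through 45.7% in ear, 33.8% through 43.4% in leaf and 38.3% through 44.5% in stem. B73xTIL05 was at 85.8% (95% Wilson interval 82.8 to 88.3), 90.4% (88.3 to 92.2) and 90.1% (87.8 to 92.0), while the next cross in each tissue was at 52.1%, 51.7% and 54.9%. The sites lie close together in the transcript and can be covered by the same read, so these intervals are too narrow. The gene was not called in any tissue.

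The 5 genes with most widely segregating sites held 7 to 10 of them. GRMZM2G300624, with 10 sites on chromosome 4 (from A712C at 177873549 to C6692T at 177892440), had 2037 maize and 2564 teosinte reads in ear, with 579 and 754 in leaf and 1701 and 2174 in stem. Teosinte was higher in 24 of 28 crosses in ear, and the log2 ratio was -0.31 ± 0.05 in ear and -0.27 ± 0.06 in stem (SE, edgeR adjusted p = 6.81e-05 and 0.00324). The stem call was lost without replicate 1, without replicate 2 and with the deepest site alone, and the ear call with the deepest site alone. GRMZM2G017229, with 9 sites in the chromosome 5 window that held most sites, had a maize share of 46.05% (ear), 51.1% (leaf) and 52.1% (stem) and was not called. Ear minus stem was -5.94 points, with stem higher in 24 of 28 crosses (permutation test, adjusted p = 0.00227).

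GRMZM5G806358, with 8 sites on chromosome 5, had 49.1%, 54.0% and 51.2% maize reads in ear, leaf and stem. All 3 tissue pairs differed, with ear minus leaf at -4.78 points (leaf higher in 21 of 25 crosses), ear minus stem at -2.01 (stem higher in 18 of 25) and leaf minus stem at 2.80 (leaf higher in 21 of 26; permutation test, adjusted p = 0.000733, 0.00395 and 0.00203). GRMZM2G362942, with 7 sites on chromosome 1, of which 3 were listed in all 29 crosses, was called toward teosinte in ear at -0.39 ± 0.08 (SE, edgeR adjusted p = 0.00141), and ear minus leaf was -8.96 points, with leaf higher in 21 of 28 crosses (permutation test, adjusted p = 0.00203). The call was lost without replicate 1 (-0.42), without replicate 2 (-0.37) and without B73xTIL01 and B73xTIL05 (-0.36). GRMZM2G070605 took most reads in leaf, with 52744 maize and 58502 teosinte reads against 823 and 768 in ear. Its share was 47.4% in leaf, 51.7% in ear and 50.8% in stem, and it was not called. GRMZM2G074300 had 51.0% maize reads in ear and 47.7% in both leaf and stem, with ear above stem by 2.90 points in 22 of 27 crosses (permutation test, adjusted p = 0.0016).

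None of the 8 domestication genes tabulated by the study held a widely segregating site, where 1.83% of all gene models with a site did. With so low a share, none among 8 genes is no result about these genes. The most crosses that listed 1 site of such a gene ranged from 3 for GRMZM2G085873 to 14 for GRMZM2G070034, and the best-known of them, the branching regulator tb1 (AC233950.1_FG002), had 14 sites listed in at most 7 crosses.

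Levels in the parents were compared where a site was listed for all 15 inbreds, by edgeR's quasi-likelihood test on counts summed per inbred at an adjusted p below 0.05. Of 72 member genes tested in ear, 3 were called, all higher in teosinte, where 4.66% of all 322 genes tested were called (0.621% higher in maize and 4.04% in teosinte). In leaf 2 of 84 were called, both higher in maize, with 1.28% of 391 genes (0.767% and 0.512%), and in stem none of 75, with 0.262% of 381. In stem 9 member genes had an unadjusted p under 0.05, with 29 of all 381 genes (7.61%), and DESeq2 called 2. Parent levels in ear are given as CPM, here reads scaled to the inbred's total over the 322 genes tested, not to the whole library. They are therefore higher than CPM of whole libraries would be. GRMZM2G017249 had a median CPM of 630 in maize ears (236 to 1119) and 3266 in teosinte ears (1708 to 4487), without overlap. Its log2 difference was -2.19 ± 0.33 (SE, edgeR adjusted p = 0.000564). GRMZM2G069649 had 717 (590 to 1291) and 2710 (1583 to 3748), also without overlap, at -1.69 ± 0.24. GRMZM2G017207 was lower in maize in ear at -1.55 ± 0.39 and higher in maize in leaf at 1.30 ± 0.27, and GRMZM2G017229 was higher in maize leaf at 1.46 ± 0.24. The leaf call of GRMZM2G017207 was lost without replicate 1 (1.086). In the F1s the log2 ratios of these genes in the same tissues were -0.29, -0.12, -0.23, -0.00 and 0.12. None passed the stricter F1 threshold of 0.005. GRMZM2G017249 in ear, at -0.29, had an edgeR adjusted p of 0.02275, below the 0.05 used for parents, and the others were above 0.05. Parent levels were read at sites of all 15 inbreds and F1 ratios at all sites of a gene, and the difference between them was not tested. GRMZM2G017207, GRMZM2G017229 and GRMZM2G017249 are close neighbours on chromosome 5, with sites at 74647113, 74645414 and 74641121. Their parent calls come from 1 locus and are not independent.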

How the data were processed

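The authors deposited read counts per library and sequencing lane, 1 line per transcript and segregating site, in 448 samples. In F1s the deposited counts give maize-allele and teosinte-allele reads, and in parents reads of the inbred's own allele. They were not normalized. The authors aligned reads with Bowtie, perfect alignments only, to transcriptomes of both parents, built from B73 AGPv2 with variants called after BWA alignment by GATK. Since variants were called against B73, reference and other alleles may be read unequally.

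Crosses Mo17xTIL25 and CML103xTIL25 (16 samples) were left out of the comparisons, and tissues follow the labels. For 2 libraries, Oh43xTIL01 ear replicate 2 and Oh43xTIL11 stem replicate 1, the study's library list gives stem and ear. Over genes, log2 CPM in the first correlated at 0.967 with the other ear library of its cross and at 0.893 and 0.880 with its stem libraries, and in the second at 0.956 with the other stem library and at 0.689 and 0.704 with its ear libraries (9472 and 9876 genes, which are not independent replicates). The members and gene lists were chosen with earlier results of these data known. Lanes and replicates were summed per cross. A position shared by several transcripts of 1 gene entered a single time, from the transcript with most reads. F1 depth, summed over sites, was 814830 to 3180394 per library, with a read that covers several sites counted at each.

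Shares were compared within crosses by permutation tests (100000 sign flips with scipy 1.17.1, exact under 10 values). Genes and sites with at least 100 reads (sites listed in at least 15 crosses) were tested by edgeR 4.0.16 in R 4.3.3 with the cross as a block, threshold 0.005, and parents with TMM scaling, threshold 0.05. The dispersion trend was fitted on 1 of every 8 features. DESeq2 1.42.0, other filters, scaling, weights, site classes, left-out replicates and crosses were alternatives. The fits were tested on simulated data. The 94 pairs of replicate libraries, which the labels call biological, had a lowest chi-square per degree of freedom of 1.735 and a median of 6.756. Counts were summed over sites, and a read covering several sites raises this value. The lowest value therefore cannot show that every pair differed by more than sampling noise. Both ear libraries of Oh43xTIL10 are labelled replicate 1 (chi-square per degree of freedom 1.45) and were summed as repeats of 1 replicate, except where libraries were the units.

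Named genes were, per tissue, the 4 called member genes with the largest log2 ratio in each direction with at least 100 reads at member sites, the 5 genes with most members, the 5 with most member reads, and domestication genes with a member. Gene names came from the RefSeq table, which matched 585 of 987 genes and named 69. Gene groups by description were not formed, since that table gives no descriptions, and no sequence context was used here.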

Additional observations from a re-analysis of the deposited data

Results flagged for a closer look

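Of 44 groups of 4 to 10 values searched for 1 far from the others, 26 were crosses that share an inbred, compared in the maize share of widely segregating sites, and the rest inbred means, replicate libraries and parent levels of called genes. The 5 values marked were all crosses in groups of the first kind. About 1 in 20 groups is marked by chance. B73xTIL01 was high in leaf, at 58.5%, with the next of the B73 crosses at 53.1% and the next of the TIL01 crosses at 50.9%. It was high in stem at 56.9%, with the next at 52.1% and 50.7%. In ear, B73xTIL14 at 50.9% was above the other crosses of TIL14, the next at 49.9%.

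Of 55 tests of a tissue difference in the maize share of a named gene, 17 had an adjusted p below 0.005 by permutation test. Genes named for a large ratio in a tissue were chosen with that tissue's values, which favors a difference. Ear minus leaf was 34.91 points in GRMZM2G126858, 26.03 in GRMZM2G134563, 20.28 in GRMZM2G093359, -4.429 in GRMZM2G039254, -4.78 in GRMZM5G806358, -8.96 in GRMZM2G362942 and -19.29 in GRMZM2G088689. Ear minus stem was 2.903 in GRMZM2G074300, -2.009 in GRMZM5G806358, -5.936 in GRMZM2G017229 and -14.52 in GRMZM2G088689. Leaf minus stem was 4.884 in GRMZM2G039254, 2.801 in GRMZM5G806358, -12.25 in GRMZM2G177349, -18.65 in GRMZM2G134563, -22.27 in GRMZM2G093359 and -33.72 in GRMZM2G126858.

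The crosses left out of the comparisons were far from 1:1 at these sites. Libraries of CML103xTIL25, which lists 1052 of the sites (73.9%), held 35.99% and 35.54% maize reads in leaf and 36.87% and 36.71% in stem, with 31.1% to 31.9% at all sites. Libraries of Mo17xTIL25, which lists 1056 (74.2%), held 97.22% and 99.71% in leaf and 97.56% and 99.56% in stem, with 96.3% to 99.4% at all sites.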

How the results depend on the processing

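The difference in maize share from other sites was 0.0049 (ear), 0.22 (leaf) and -0.024 (stem) against sites of 15 to 21 crosses (-0.013, 0.26 and 0.0060 without B73xTIL01), and -0.18, -1.05 and -1.07 in crosses of B73 alone, none past the test. As a mean per maize inbred it was -0.42, -0.44 and -0.57, and in leaf -0.44 per teosinte inbred and -0.39 against sites at which B73 carries the maize allele, also not past it. Leaving out replicates gave -0.44 to -0.30 in ear, -0.87 to -0.24 in leaf and -1.18 to -0.27 in stem, and within genes -0.59 to -0.23, -1.10 to -0.40 and -1.16 to -0.21. Ear minus leaf was -0.61 and leaf minus stem 0.41 with every transcript that lists a site, and leaf minus stem 0.46 at sites of 26 or more crosses, each past the test. Ear minus stem was 0.20 at those sites, and leaf minus stem -0.089 with equal weights. Without 1 replicate the differences ear minus leaf, ear minus stem and leaf minus stem were -0.36 to -0.27, -0.44 to 0.064 and -0.0099 to 0.40.

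Member genes called in ear, leaf and stem were 219, 167 and 180 at a threshold of 0.05 (1999, 1751 and 1786 of all genes), 480, 491 and 515 by a binomial test on summed reads (8891, 9639 and 9833), 182, 129 and 145 by DESeq2 (1196, 1000 and 1048) and 218, 137 and 154 with each library as a replicate block (2339, 1527 and 1485). Over all genes 318, 252 and 140 were called without replicate 1 and 415, 175 and 358 without replicate 2. With the deepest site of each gene alone 321 of all genes were called in leaf. Without a replicate 60 to 100, 36 to 79 and 30 to 62 were called. Sites called were 357, 313 and 348 at 0.05 (2125, 1777 and 2093 of all), 432, 414 and 430 by the binomial test (2877, 2756 and 2944), 121, 82 and 130 with at least 1000 reads (558, 358 and 575), and 100 to 199, 64 to 149 and 85 to 120 without a replicate. The replicate block gave 1640 and 1139 of all sites in ear and leaf.

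Parent calls among member genes were 5, 10 and 2 by DESeq2 (34 and 8 of all genes in leaf and stem), 8, 13 and 3 with libraries as units (30, 42 and 12), 8, 12 and 3 with a replicate block as well (30, 39 and 12), 2 in ear, 2 to 3 in leaf and 0 in stem without a replicate, and 1 in stem with no read minimum. Same-numbered replicates did not deviate together (median correlation 0.0006, 0.0085 and 0.0032 in the F1s), so the numbers were not taken as pairs. Of 431 alternatives for the 40 called pairs of a named gene and tissue, 400 kept the call, 31 lost it and 0 reversed it, and 24 of the pairs were called under every alternative run. Of 28 for the 5 parent calls, 27 kept it. Leaving out B73xTIL01, alone or with another set of sites, equal weights with at least 26 crosses, and the classes by most listed site were chosen after seeing the data. The cause of these changes was not tested.

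Depth limits the shares of single crosses at single sites, where the median was 18.3 to 23.9 reads, and genes with few crosses of 10 reads. Crosses share 15 inbreds and are not fully independent.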
